A study of Mus musculus with 9 samples.

Results

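The steroid 5-alpha-reductase genes Srd5a1, Srd5a2 and Srd5a3 were chosen by gene symbol, and all 3 were found among the 33924 genes of the count table. The family was picked because Srd5a1 was lower in Smarcb1-labelled than in Arid2-labelled thyroids, so its values in that contrast are given as a description, with no test. Mouse thyroids had been profiled by RNA sequencing in 3 groups of 3 libraries each, labelled Smarcb1 KO, Arid2 KO and wild type. Smarcb1 and Arid2 each encode a subunit of the SWI/SNF chromatin remodellers. The age and strain of the mice, the alleles, any Cre driver and pooling are not given in the sources used here. No label says that each library is a separate animal, so the spread behind a p-value is that between these libraries and may be technical.

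Steroid 5-alpha-reductases are membrane enzymes that add hydrogen to a double bond. Srd5a1 and Srd5a2 encode the enzymes that turn testosterone into the stronger androgen dihydrotestosterone and that also reduce progesterone and glucocorticoids. Srd5a2 is known for its role in the prostate and other male accessory organs, and Srd5a1 for its wider distribution, including liver and brain. Srd5a3 is a more distant relative needed to make dolichol, the lipid on which the sugar chain of N-glycoproteins is assembled, and thyroglobulin, the main product of the thyroid follicle, is such a glycoprotein.

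The promoters of the members and of Nsun2, the neighbour whose transcription start faces that of Srd5a1, are shown because the results below turn on a gene that changed next to one that did not pass the test. The sequences are from RefSeq, build GRCm38.p6, which differs from the mm9 build named for the counts. Each window runs from 250 bases before to 50 bases after the annotated start, 5′ to 3′ on the gene's strand, and capitals mark GC boxes (GGGCGG or its reverse complement CCGCCC).
Srd5a1: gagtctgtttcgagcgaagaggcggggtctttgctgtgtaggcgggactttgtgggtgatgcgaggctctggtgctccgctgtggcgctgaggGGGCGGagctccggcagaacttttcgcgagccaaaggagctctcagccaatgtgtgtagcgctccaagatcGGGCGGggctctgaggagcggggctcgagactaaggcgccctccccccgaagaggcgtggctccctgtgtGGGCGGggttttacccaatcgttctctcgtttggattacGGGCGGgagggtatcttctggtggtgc
Nsun2: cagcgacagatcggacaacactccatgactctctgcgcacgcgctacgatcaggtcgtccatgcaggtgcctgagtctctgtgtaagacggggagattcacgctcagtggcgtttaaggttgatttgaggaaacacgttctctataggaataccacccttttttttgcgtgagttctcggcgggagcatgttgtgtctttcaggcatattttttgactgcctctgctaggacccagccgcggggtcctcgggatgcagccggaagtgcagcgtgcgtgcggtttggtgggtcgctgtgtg
Srd5a3: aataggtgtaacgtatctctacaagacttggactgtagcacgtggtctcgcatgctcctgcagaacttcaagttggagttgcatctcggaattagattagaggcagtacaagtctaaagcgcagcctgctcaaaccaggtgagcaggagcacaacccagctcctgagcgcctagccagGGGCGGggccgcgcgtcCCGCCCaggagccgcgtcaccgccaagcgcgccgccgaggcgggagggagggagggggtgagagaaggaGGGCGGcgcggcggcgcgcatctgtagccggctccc
Srd5a2: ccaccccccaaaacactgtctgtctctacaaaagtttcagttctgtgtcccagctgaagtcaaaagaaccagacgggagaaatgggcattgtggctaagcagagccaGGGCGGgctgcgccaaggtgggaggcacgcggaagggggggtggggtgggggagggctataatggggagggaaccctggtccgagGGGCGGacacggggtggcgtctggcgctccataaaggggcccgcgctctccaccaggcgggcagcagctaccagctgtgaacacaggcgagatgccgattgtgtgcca
The windows lie at chr13:69611414-69611713 on the minus strand for Srd5a1, chr13:69611766-69612065 on the plus strand for Nsun2, chr5:76140023-76140322 on the plus strand for Srd5a3 and chr17:74047811-74048110 on the minus strand for Srd5a2. The annotated starts of Srd5a1 and Nsun2 lie 553 bases apart, and 52 bases separate the windows. GC boxes were found 4 times in the Srd5a1 window, 3 times in that of Srd5a3, 2 times in that of Srd5a2 and 0 times in that of Nsun2, and 35.7% of the 32851 promoter windows in the table held at least 1. The Srd5a1 window also held CCAAT or ATTGG at 2 places, letters found in 37.4% of all windows and in none of the other 3 windows. The letters TATAAA or TTTATA, found in 13.6% of all windows, were in none of the 4. No GC box overlapped a CCAAT box. GC content was 63.0% in the Srd5a1 window, 63.3% for Srd5a3, 62.7% for Srd5a2 and 55.3% for Nsun2, against a median of 52.7% over all windows. A match is a description of letters and not a site of binding.

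The libraries held 38644867 to 41362640 counts in the Smarcb1-labelled group, 61179297 to 89553766 in the Arid2-labelled group and 33666251 to 34045321 in wild type. Smarcb1 stood at 47.5 to 59.4 CPM (read counts scaled to library size, with TMM factors, the trimmed mean of M values) in Smarcb1-labelled libraries and at 65.9 to 71.7 CPM in wild type, and Arid2 at 59.9 to 94.6 CPM in Arid2-labelled libraries and at 67.8 to 75.0 CPM in wild type. Neither targeted gene passed the test against wild type (edgeR, adjusted p = 0.0651 and 0.745). A count over the whole gene also takes in exons that a deletion leaves, so it checks the labels only weakly, and the groups are called Smarcb1-labelled and Arid2-labelled. The 7 follicular markers, led by thyroglobulin, summed to 228000 to 303000 CPM in Smarcb1-labelled, 246000 to 324000 CPM in Arid2-labelled and 248000 to 321000 CPM in wild-type libraries. Nearly all of that sum was thyroglobulin, and other markers moved. Foxe1, a thyroid transcription factor gene, stood at 44.7 to 61.8 CPM in Smarcb1-labelled, 118 to 174 CPM in Arid2-labelled and 201 to 278 CPM in wild-type libraries. Pax8 also lay below wild type in all 3 Smarcb1-labelled libraries, at 304 to 327 against 370 to 491 CPM. Slc5a5, the iodide transporter gene, stood at 105 to 143 CPM in Arid2-labelled and 389 to 533 CPM in wild-type libraries. The 3 parathyroid markers summed to 6090 to 17000 CPM in Smarcb1-labelled, 10.6 to 1580 CPM in Arid2-labelled and 8.16 to 4320 CPM in wild-type libraries. The 3 C-cell markers summed to 7270 to 9220, 2730 to 3340 and 1950 to 9700 CPM in the same order. Most of the Smarcb1-labelled C-cell sum was Chga, at 4870 to 7120 CPM. Chga was at 29.5 and 32.9 CPM in Arid2-labelled and wild-type replicate 3, where Pth was at 0.129 and 0.0297 CPM. Calca overlapped wild type (2060 to 2750 against 1860 to 4750 CPM), and Ret was lower in Smarcb1-labelled libraries (40.6 to 45.1 against 52.9 to 66.9 CPM). The 3 cartilage markers summed to 6.56 to 182 CPM in Smarcb1-labelled, 4.77 to 9.70 CPM in Arid2-labelled and 1.94 to 2.55 CPM in wild-type libraries. The 3 fibroblast markers summed to 1290 to 1810 CPM in Smarcb1-labelled, 1520 to 1840 CPM in Arid2-labelled and 1850 to 2100 CPM in wild-type libraries. The 3 airway markers summed to 0.379 to 1.47, 17.8 to 27.5 and 0.485 to 0.712 CPM in the same order. Arid2-labelled replicate 1 and Smarcb1-labelled replicate 2 carried the thymocyte gene Rag1 at 502.0 and 52.6 CPM, against 0.145 CPM or less in the other 7 libraries. Smarcb1-labelled replicate 3 had Xist, the RNA of X inactivation, at 809 CPM and 0 counts of the Y-linked Ddx3y, while Xist was at 2.6 CPM or less elsewhere.

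Srd5a1 was lower in Smarcb1-labelled than in wild-type thyroid, about 7-fold by the fitted value. Its Smarcb1-labelled levels were 2.06, 2.15 and 2.11 CPM for replicates 1, 2 and 3, from 81, 95 and 78 counts. In Arid2-labelled replicates 1, 2 and 3 it stood at 24.9, 15.3 and 24.9 CPM, from 2263, 977 and 1550 counts. In wild-type replicates 1, 2 and 3 it stood at 12.4, 18.0 and 13.5 CPM, from 408, 632 and 456 counts. All 3 Smarcb1-labelled libraries lay below all others, and the Arid2-labelled and wild-type ranges overlapped, since Arid2-labelled replicate 2 lay below wild-type replicate 2.

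The group means were 2.11 ± 0.0447 CPM in Smarcb1-labelled, 21.7 ± 5.55 CPM in Arid2-labelled and 14.6 ± 2.96 CPM in wild-type libraries (SD, n = 3 each). Against wild type, Srd5a1 fell by 2.79 on the log2 scale in Smarcb1-labelled thyroid (SE 0.23, 95% interval -3.36 to -2.23), a 6.94-fold lower level, lower in 3 of 3 libraries. The adjusted p was 0.00102 by edgeR's quasi-likelihood test with Benjamini-Hochberg adjustment over 17079 tested genes. In that comparison 7.9% of tested genes passed, 5.74% as lower, and in 33.7% the 2 groups did not overlap, with Smarcb1-labelled libraries lower in 16.7%. The Smarcb1-labelled libraries are those in which the gene was picked, so this p-value is not independent of the choice. In whole tissue, fewer cells of a type and less RNA per cell cannot be told apart.

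Only 41 of the 17079 tested genes had a lower fitted fold change than Srd5a1 in Smarcb1-labelled against wild-type thyroid, and 6 of them had a mean log2 level over all libraries at least as high. With the dependence on GC content taken out of each library the difference was -2.78, and the Srd5a1 transcript has 51.5% GC. With parathyroid markers as a covariate it was -2.80. The parathyroid sums of Smarcb1-labelled libraries (6090 to 17000 CPM) lay above all those of wild type (8.16 to 4320 CPM). The covariate therefore cannot fully separate parathyroid content from group. Foxe1, Pax8 and the sum of the fibroblast markers were lower in all 3 Smarcb1-labelled libraries than in wild type, and the cartilage sum was higher. Single markers did not all follow their sum. Dcn, a fibroblast marker, exceeded every wild-type library in Smarcb1-labelled replicate 1 (830 against 575 to 665 CPM) and lay below them in replicates 2 and 3. The cartilage sum was mostly Lect1, and Col2a1 overlapped wild type. The part of Foxe1, Pax8 and the fibroblast, cartilage and C-cell markers in the Srd5a1 difference was not tested. Without Smarcb1-labelled replicate 3, the library with high Xist, it was -2.80, and without the 2 thymus-marked libraries it was -2.86. In wild-type replicates 1, 2 and 3, levels of parathyroid hormone RNA (Pth) were 1200, 4170 and 0.0297 CPM beside Srd5a1 at 12.4, 18.0 and 13.5 CPM.

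**Figure D1:**
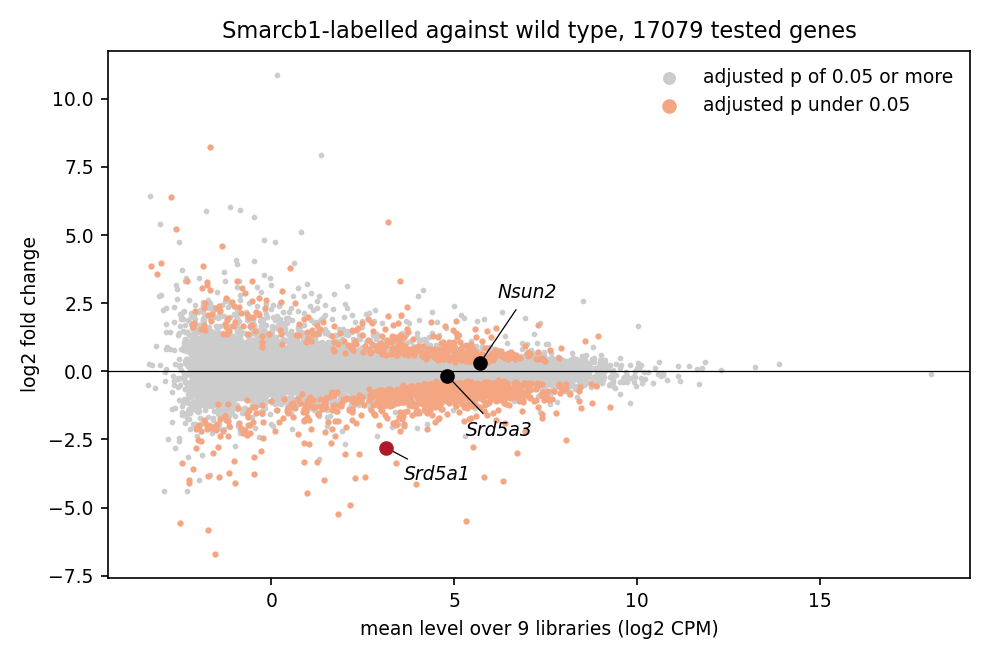
Log2 fold change of Smarcb1-labelled against wild-type thyroid (y axis) by mean log2 CPM over the 9 libraries (x axis), 1 point for each of the 17079 tested genes, with those at an adjusted p under 0.05 in orange. Srd5a1 (red) lies at -2.79 with 41 genes below it, and Srd5a3 (-0.16) and Nsun2 (0.29), in black, lie near the zero line.

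In Arid2-labelled thyroid the Srd5a1 difference from wild type did not pass the test. The log2 fold change was 0.57 (SE 0.22, 95% interval 0.03 to 1.11, adjusted p = 0.265 by edgeR), where 0.556% of tested genes passed, 0.234% as higher and 0.322% as lower, and 25.5% had groups that did not overlap. Replicates 1 and 3 lay above all wild-type libraries and replicate 2 between them. The gene was picked in the Arid2-labelled libraries too, so the p-value and interval against wild type are not independent of the choice. The fitted difference of Smarcb1-labelled from Arid2-labelled thyroid, on which the gene was picked, was -3.36 on the log2 scale, 10.3-fold lower. It is given without a test. In that contrast 16.3% of all tested genes passed, 6.95% as higher and 9.32% as lower, the 2 groups did not overlap in 38.8%, and 21 genes had a lower fitted fold change.

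**Figure D2:**
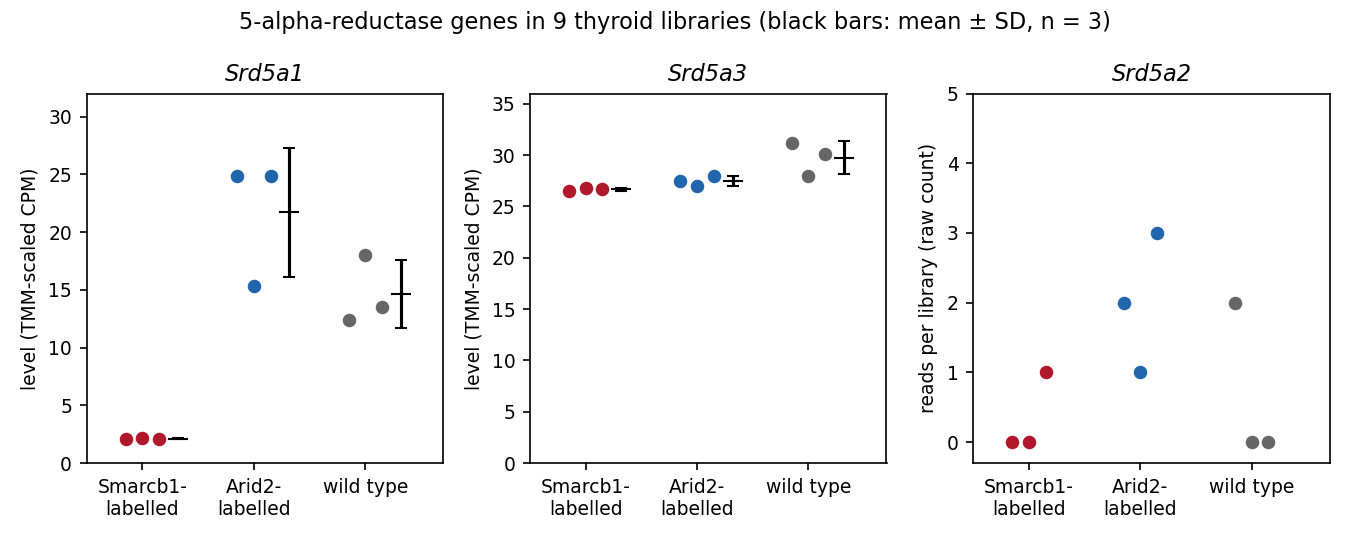
Srd5a1 and Srd5a3 in TMM-scaled CPM and Srd5a2 in raw reads (y axes) for each library, in Smarcb1-labelled, Arid2-labelled and wild-type thyroid (x axes); points are libraries in replicate order and black bars, for Srd5a1 and Srd5a3, the mean ± SD of 3. Srd5a1 is near 2.11 CPM in all 3 Smarcb1-labelled libraries, Srd5a3 lies between 26.5 and 31.2 CPM throughout, and Srd5a2 does not exceed 3 reads.

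The spread of Srd5a1 within groups was uneven. The coefficient of variation was 2.12% in Smarcb1-labelled, 25.6% in Arid2-labelled and 20.3% in wild-type libraries. The 3 Smarcb1-labelled counts agreed within counting error (chi-square of counts, 0.0787 on 2 degrees of freedom, p = 0.961), and exact 95% Poisson intervals of their levels ran from 1.64 to 2.56, 1.74 to 2.63 and 1.67 to 2.63 CPM. The Arid2-labelled and wild-type counts varied beyond counting error (chi-square of counts, 189 and 41.1 on 2 degrees of freedom). Without wild-type replicate 2, the highest of its group, the difference of Smarcb1-labelled from wild-type thyroid was -2.62, the smallest of the fits that left out 1 library, and without wild-type replicate 1 it was -2.90, the largest. The Poisson intervals cover counting error only, and they and the chi-square take each read as a separate molecule. PCR copies of 1 molecule cannot be told from separate molecules here.

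Srd5a3, the member that serves dolichol synthesis, was close to even over all libraries. Its levels were 26.5, 26.8 and 26.7 CPM for Smarcb1-labelled replicates 1, 2 and 3, 27.5, 27.0 and 28.0 CPM for Arid2-labelled replicates and 31.2, 28.0 and 30.1 CPM for wild-type replicates. The Smarcb1-labelled libraries all lay below wild type, as did 16.7% of tested genes. The Arid2-labelled libraries nearly did so too, with replicate 3 and wild-type replicate 2 both at 28.0 CPM. The log2 fold change against wild type was -0.16 in Smarcb1-labelled thyroid (SE 0.09, 95% interval -0.38 to 0.06, adjusted p = 0.254) and -0.11 in Arid2-labelled thyroid (SE 0.09, 95% interval -0.33 to 0.11, adjusted p = 0.588), by edgeR. Neither passed, and either interval leaves out a fall as large as that of Srd5a1. Smarcb1-labelled and Arid2-labelled thyroid differed by -0.05 (95% interval -0.27 to 0.17). Counts of the 3 Smarcb1-labelled libraries (chi-square p = 0.957) and the 3 Arid2-labelled libraries (chi-square p = 0.559) agreed within counting error, and those of the 3 wild-type libraries varied slightly beyond it (chi-square p = 0.0479).

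Srd5a2 was at the floor of detection in all 3 groups. It had 0, 0 and 1 reads in Smarcb1-labelled replicates 1, 2 and 3, 2, 1 and 3 reads in Arid2-labelled replicates and 2, 0 and 0 reads in wild-type replicates. A count of 0 allows up to 3 reads, which is 0.0763 and 0.0679 CPM in the Smarcb1-labelled libraries without a read and 0.0854 and 0.0890 CPM in the wild-type ones. The gene did not pass the filter on low counts, so 2 of the 3 members were tested, and no fold is given. With 3 reads or fewer in each library, a difference between groups at these levels could not be resolved.

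Per kilobase of the longest protein-coding transcript (GENCODE, GRCm38; 2644 bases for Srd5a1, 1747 bases for Srd5a3), Srd5a3 was the most abundant member in every group. Its level was 15.3 ± 0.0956 CPM per kilobase in Smarcb1-labelled, 15.8 ± 0.288 in Arid2-labelled and 17.0 ± 0.930 in wild-type libraries (SD, n = 3). Srd5a1 was at 0.797 ± 0.0169, 8.21 ± 2.10 and 5.53 ± 1.12 CPM per kilobase in the same groups. Srd5a3 lay above Srd5a1 in all 9 libraries, and Srd5a2 was at or below 0.0378 CPM per kilobase in each.

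The ratio of Srd5a1 to Srd5a3 counts within a library does not depend on how libraries are scaled. It was 0.0778, 0.0802 and 0.0792 in Smarcb1-labelled replicates, 0.906, 0.565 and 0.888 in Arid2-labelled replicates and 0.396, 0.642 and 0.450 in wild-type replicates. All Smarcb1-labelled ratios lay below all others, and 1 Arid2-labelled ratio lay among those of wild type. The log2 ratio differed by -2.62 between Smarcb1-labelled and wild-type libraries and by 0.66 between Arid2-labelled and wild-type libraries (exact two-sided permutation p = 0.1 and 0.2, n = 3 against 3). With 3 against 3 the smallest possible p is 0.1, so these tests could not reach the threshold used for calls. The adjusted p over the 4 ratio tests run was 0.2 for each. Each ratio test holds libraries in which Srd5a1 was picked, so the p-values are not independent of the choice. The ratios are therefore given as a description, and no conclusion is drawn from their tests.

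Nsun2, which encodes an RNA cytosine methyltransferase, did not pass the test against wild type in either group, next to Srd5a1. It stood at 63.1, 55.0 and 56.5 CPM in Smarcb1-labelled, 49.3, 50.8 and 50.1 CPM in Arid2-labelled and 46.9, 48.6 and 47.5 CPM in wild-type replicates. Both labelled groups lay above wild type without overlap, as did 17.1% and 12.9% of tested genes. By edgeR, Nsun2 differed from wild type by 0.29 on the log2 scale in Smarcb1-labelled thyroid (SE 0.09, adjusted p = 0.0702) and by 0.07 in Arid2-labelled thyroid (SE 0.09, adjusted p = 0.745). The Smarcb1-labelled direction is opposite to that of Srd5a1.

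The ratio of Srd5a1 to Nsun2 counts was 0.0327, 0.0391 and 0.0374 in Smarcb1-labelled, 0.505, 0.301 and 0.497 in Arid2-labelled and 0.264, 0.370 and 0.285 in wild-type replicates. The log2 ratio was lower by 3.06 in Smarcb1-labelled than in wild-type libraries (log2 difference -3.06, exact permutation p = 0.1). In Arid2-labelled against wild-type libraries it differed by 0.48 (exact permutation p = 0.2). Here too 0.1 was the smallest possible p, and the libraries are those in which Srd5a1 was picked. No conclusion is drawn from these tests either. GENCODE annotates some Nsun2 transcripts across the Srd5a1 locus on the other strand, and no source used here says whether counting used strand, so both counts are uncertain where the annotations overlap. Papd7, on the other side of Srd5a1, encodes a poly(A) polymerase and had log2 fold changes of -0.04 (SE 0.15, adjusted p = 0.895) and -0.01 (SE 0.15, adjusted p = 0.977) by edgeR in Smarcb1-labelled and Arid2-labelled against wild-type thyroid. Tmem165, the coding neighbour of Srd5a3 and a Golgi transport protein gene, had 0.01 (SE 0.15, adjusted p = 0.962) and -0.29 (SE 0.15, adjusted p = 0.404) by edgeR. Of the neighbours of Srd5a2, the xanthine dehydrogenase gene Xdh had -0.31 (edgeR adjusted p = 0.551) and 0.36 (0.652), and Memo1 had 0.15 (edgeR adjusted p = 0.534) and -0.21 (0.548).

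**Figure D3:**
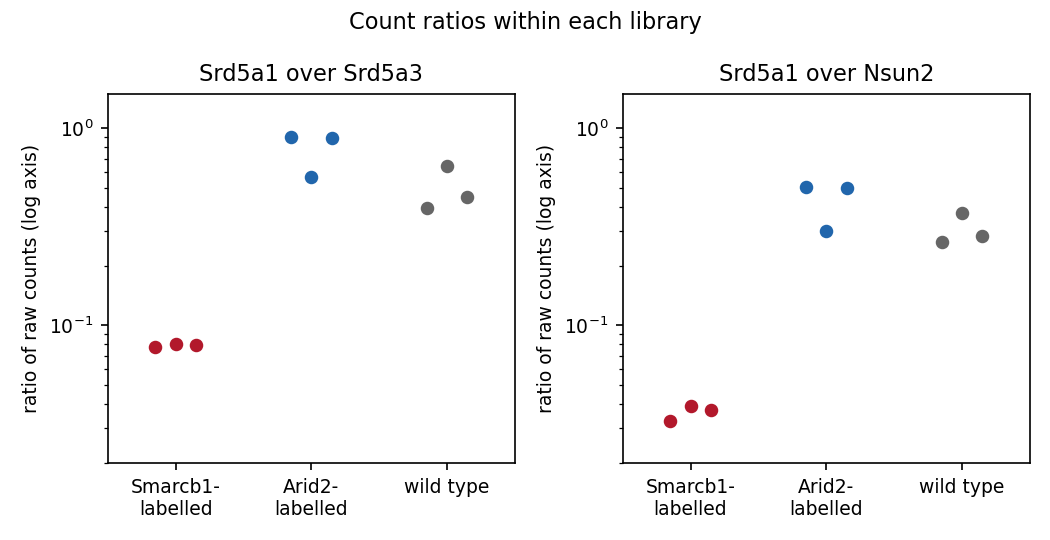
Ratio of raw counts within each library on a log axis, Srd5a1 over Srd5a3 (left) and Srd5a1 over Nsun2 (right), in Smarcb1-labelled, Arid2-labelled and wild-type thyroid; each point is 1 library. The Smarcb1-labelled points, at 0.0778 to 0.0802 and 0.0327 to 0.0391, lie below every point of the other groups.

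**Figure D4:**
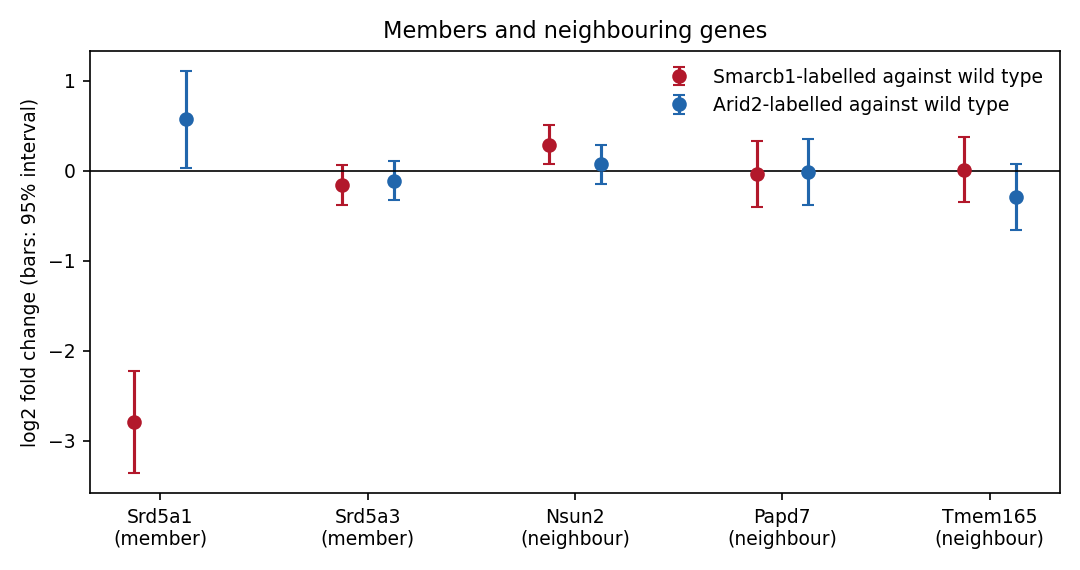
Log2 fold change against wild type with 95% intervals (y axis) for Srd5a1, Srd5a3 and neighbouring genes (x axis), Smarcb1-labelled in red and Arid2-labelled in blue. The Srd5a1 value of Smarcb1-labelled thyroid, -2.79, stands apart from the other 9 points, which lie between -0.29 and 0.57.

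In the steroid metabolism around the 5-alpha-reductases, of 28 genes of steroid reduction and dehydrogenation, 18 were tested. Against wild type 1 rose and 0 fell in Smarcb1-labelled thyroid (median log2 fold change -0.15, against 0.05 over all tested genes, of which 7.9% passed, 2.15% as higher and 5.74% as lower), and 0 were called in Arid2-labelled thyroid (median -0.20, against 0.02 over all tested genes, of which 0.556% passed). The gene that rose, Akr1c12, an aldo-keto reductase gene, averaged 2.19 ± 0.841 CPM in Smarcb1-labelled and 0.514 ± 0.311 CPM in wild-type libraries (log2 fold change 2.08, SE 0.52, edgeR adjusted p = 0.0428). It has close paralogs, so its count is uncertain, and it lost its call in 12 of 20 alternative analyses. Akr1c14, whose product acts on dihydrotestosterone in the next step, stood at 8.97 ± 2.25 CPM in Smarcb1-labelled and 12.0 ± 2.06 CPM in wild-type libraries (-0.42, SE 0.21, edgeR adjusted p = 0.219).

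Tecr, a relative of the 5-alpha-reductases that acts in fatty acid elongation, stood at 80.5 ± 14.0 CPM in Smarcb1-labelled and 101 ± 8.82 CPM in wild-type libraries (-0.32, SE 0.15, edgeR adjusted p = 0.186). Hsd17b3, the testis enzyme that makes testosterone, had 1 read over all 9 libraries, and Akr1d1, the steroid 5-beta-reductase gene, had 1. Cyp19a1, the aromatase gene, had 3 reads over all libraries. In Smarcb1-labelled against Arid2-labelled thyroid, 2 genes of the steroid reduction list were called higher, Akr1c12 and Hsd17b7, where 16.3% of all tested genes passed, and they lost these calls in 5 and 6 of 20 alternatives.

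Of 16 genes of steroid synthesis and conjugation, 10 were tested, and in Smarcb1-labelled against wild-type thyroid 2 fell and 0 rose (median -0.33, against 0.05 over all tested genes, of which 5.74% passed as lower and 2.15% as higher). Tspo, a mitochondrial outer membrane protein gene, averaged 53.8 ± 12.2 CPM in Smarcb1-labelled and 121 ± 11.4 CPM in wild-type libraries (-1.17, SE 0.17, edgeR adjusted p = 0.00771). With the GC trend removed its fold change was -0.70 (edgeR adjusted p = 0.0261). Fdxr, which passes electrons to mitochondrial cytochromes P450, averaged 7.73 ± 1.64 and 12.6 ± 1.0 CPM in the same groups (-0.71, SE 0.19, edgeR adjusted p = 0.0494) and lost its call in 15 of 20 alternatives. Against wild type 0 of the list were called in Arid2-labelled thyroid, where 0.556% of all tested genes passed. Against Arid2-labelled thyroid 3 were lower in Smarcb1-labelled thyroid, Por, Tspo and Fdxr, where 9.32% of all tested genes passed as lower. They lost these calls in 3, 7 and 7 of 20 alternatives, and with the GC trend removed the differences of -0.93, -0.72 and -0.77 became -0.48, -0.24 and -0.20.

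Of 14 genes of steroid receptors and their chaperones, 13 were tested and 0 were called against wild type in either group. Of all tested genes 7.9% passed in Smarcb1-labelled and 0.556% in Arid2-labelled thyroid. The median of the list was 0.23 in Smarcb1-labelled and -0.02 in Arid2-labelled thyroid, against 0.05 and 0.02 over all tested genes. Pgr, the progesterone receptor gene, averaged 1.37 ± 0.210 CPM in Smarcb1-labelled, 0.522 ± 0.177 CPM in Arid2-labelled and 1.24 ± 0.461 CPM in wild-type libraries (SD, n = 3 each). The log2 fold changes of Pgr against wild type were 0.14 (SE 0.35, edgeR adjusted p = 0.819) in Smarcb1-labelled and -1.24 (SE 0.36, edgeR adjusted p = 0.156) in Arid2-labelled thyroid. Pgrmc2, a membrane protein gene of the progesterone receptor component family, averaged 58.8 ± 5.95, 44.7 ± 4.09 and 50.2 ± 4.21 CPM in the same groups. In Smarcb1-labelled against Arid2-labelled thyroid 3 genes of the list were called higher, where 6.95% of all tested genes passed as higher. Pgr and Pgrmc2 were among them and lost these calls in 8 and 14 of 20 alternatives.

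In the dolichol pathway, where Srd5a3 acts, 22 of 23 genes were tested. Against wild type 1 fell and 0 rose in Smarcb1-labelled thyroid (median -0.02), where 7.9% of all tested genes passed. In Arid2-labelled thyroid 0 were called (median -0.06), where 0.556% of all tested genes passed. Dpm3, which holds dolichol-phosphate mannose synthase in the membrane, stood at 3.87, 5.61 and 3.44 CPM in Smarcb1-labelled, 12.8, 14.8 and 16.6 CPM in Arid2-labelled and 14.8, 17.3 and 15.8 CPM in wild-type replicates. The Smarcb1-labelled libraries lay below all others, and the difference from wild type was -1.89 (SE 0.21, edgeR adjusted p = 0.00269), which passed in all 20 alternatives. Dhdds and Nus1, which make the polyprenol chain upstream of Srd5a3, had fold changes against wild type of -0.23 (SE 0.13, edgeR adjusted p = 0.283) and 0.23 (SE 0.14, edgeR adjusted p = 0.295) in Smarcb1-labelled thyroid. Dolk, which phosphorylates dolichol downstream, had -0.26 (SE 0.14, edgeR adjusted p = 0.257), and Dpagt1, which adds the first sugar, had -0.20 (SE 0.10, edgeR adjusted p = 0.219).

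In Smarcb1-labelled against Arid2-labelled thyroid 2 genes of the dolichol list, Nus1 and Alg11, were higher and 2, Dpm3 and Dolpp1, were lower, where 16.3% of all tested genes passed. Dpm3 kept this call in all 20 alternatives, while Nus1, Alg11 and Dolpp1 lost theirs in 9, 12 and 9. All 12 genes of the oligosaccharyltransferase, which moves the finished sugar chain to the protein, were tested. Against wild type 3 fell and 0 rose in Smarcb1-labelled thyroid (median -0.18), namely Ost4 (-0.63, SE 0.12), Ddost (-0.48, SE 0.12) and Krtcap2 (-0.51, SE 0.13), where 5.74% of all tested genes passed as lower. They lost their calls in 6, 12 and 14 of 20 alternatives. In Arid2-labelled thyroid 0 were called (median -0.19), where 0.556% of all tested genes passed. Against Arid2-labelled thyroid Ost4 and Ddost were lower in Smarcb1-labelled thyroid, where 9.32% of all tested genes passed as lower. They lost these calls in 13 and 14 of 20 alternatives.

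Over the 5 lists, 7 of 75 tested genes were called in Smarcb1-labelled against wild-type thyroid, near the 7.9% of all tested genes. In Smarcb1-labelled against Arid2-labelled thyroid 14 of the 75 were called, where 16.3% of all tested genes passed. The first number was 3 and 2 without Smarcb1-labelled replicates 1 and 3, 3 without Arid2-labelled replicate 2, and 2, 4 and 2 without wild-type replicates 1, 2 and 3. The second was 2 and 2 without Smarcb1-labelled replicates 1 and 3, 9, 2 and 1 without Arid2-labelled replicates 1, 2 and 3, and 6 without wild-type replicate 1. In Arid2-labelled against wild-type thyroid edgeR called 0 of the 75, limma-voom called 0 and DESeq2 called 2. Over all genes they called 95, 101 and 882 there. At an unadjusted p under 0.05 edgeR had 3 genes of steroid reduction, 1 of steroid synthesis, 4 of the receptor list, 0 of the dolichol list and 2 of the oligosaccharyltransferase in that comparison. For the receptor list in Smarcb1-labelled against wild-type thyroid, 3 were under an unadjusted p of 0.05 and DESeq2 called 1. DESeq2 called 2768 over all genes in that comparison. The share of all tested genes at an unadjusted p under 0.05 was not computed, so these counts cannot be set against it. Against wild type, Tspo and Dpm3 passed for Smarcb1-labelled thyroid in all 20 alternatives.

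**Figure D5:**
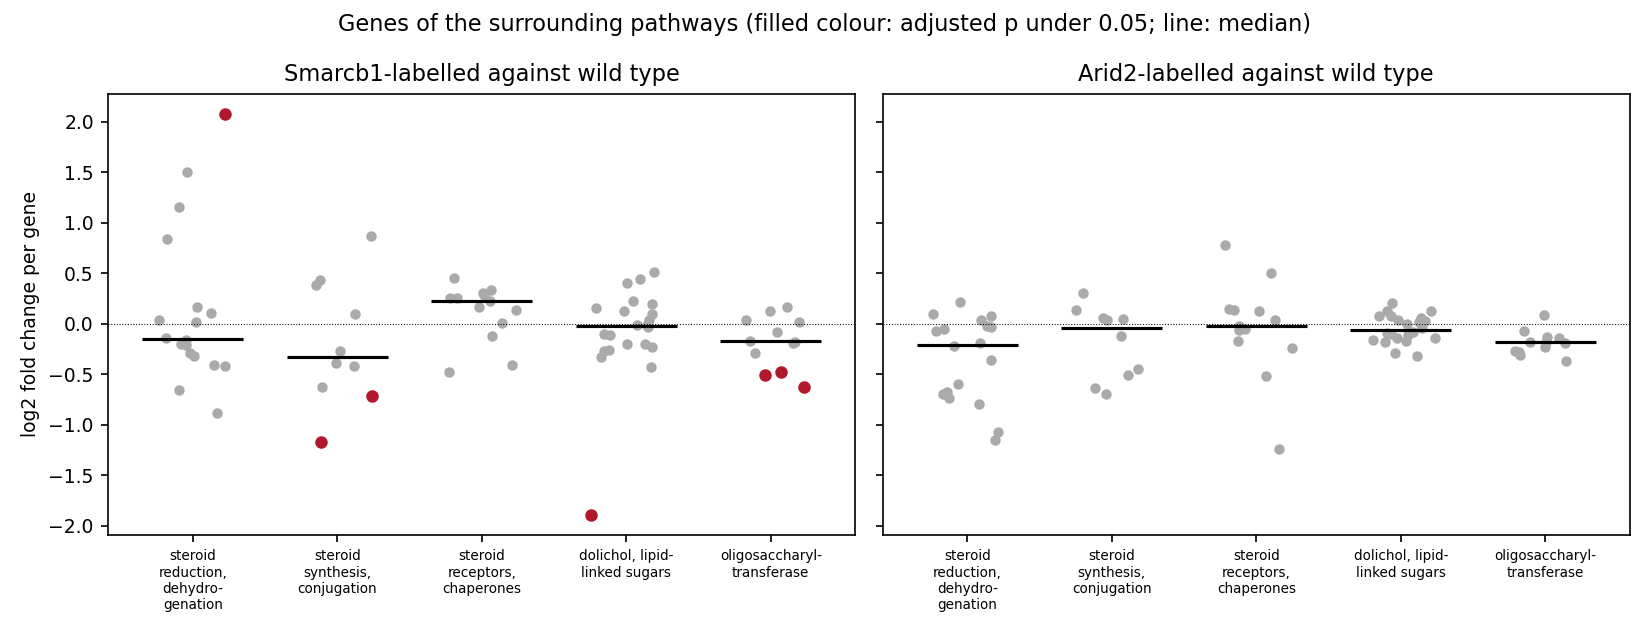
Log2 fold change against wild type (y axis) of each tested gene in 5 lists around the 5-alpha-reductases (x axis), in Smarcb1-labelled (left) and Arid2-labelled (right) thyroid; colour marks an adjusted p under 0.05, grey the other genes, and the line is the list's median. Called genes stand at 2.08 (Akr1c12), -1.17 (Tspo), -0.71 (Fdxr), -1.89 (Dpm3) and -0.48 to -0.63 (oligosaccharyltransferase) on the left, and 0 genes are called on the right.

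Over the 9 libraries, the genes whose log2 levels followed Srd5a1 most closely among 11710 genes were Psmd9, Zfp511, Rps13, Rab43 and Mutyh, with Pearson correlations of 0.987, 0.984, 0.983, 0.983 and 0.981. Pearson's measure ignores the size of a difference, and theirs were small, from -0.35 for Zfp511 to -0.52 for Mutyh on the log2 scale in Smarcb1-labelled against wild-type thyroid. The most opposite patterns were those of Adat2, Atxn1, Dhtkd1, Slc39a7 and Apbb2, with correlations of -0.989, -0.978, -0.973, -0.966 and -0.961. Atxn1 averaged 12.8 ± 0.622 CPM in Smarcb1-labelled, 6.06 ± 0.686 CPM in Arid2-labelled and 6.27 ± 0.0503 CPM in wild-type libraries. These correlations mainly follow the 3 groups, which all genes share, and are given as a description.

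Srd5a3 was followed most closely by Slc45a3, Slc24a6, Fzd7, Acot2 and Ogg1, with correlations of 0.963, 0.962, 0.958, 0.948 and 0.935, and most oppositely by Spred3, Alpk1, Smyd3, Pitrm1 and Caprin2, from -0.962 to -0.918. Slc45a3, a solute carrier gene, averaged 2.98 ± 0.159 CPM in Smarcb1-labelled, 3.11 ± 0.248 CPM in Arid2-labelled and 4.99 ± 1.55 CPM in wild-type libraries. Spred3, an inhibitor of MAP kinase signalling, averaged 12.8 ± 1.67, 9.67 ± 0.782 and 5.75 ± 1.70 CPM in the same groups. The 2 sets held no gene in common with those of Srd5a1.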

How the data were processed

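RNA was isolated with TRIzol from flash-frozen thyroids and sequenced after TruSeq library preparation, per the labels' protocols. The authors deposited 1 table of raw read counts per gene symbol, whole and not normalized. STAR 2.4, HTSeq 0.6.1, DESeq2 and build mm9 are listed, per the submitters' processing notes, without their roles, and the strand setting is not given in the sources used here.

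Groups came from the genotype labels. Replicate numbers were assigned here in sample order within each group. From the deposited counts, edgeR 4.0.16 in R 4.3.3 fitted all 9 libraries as 3 group means (quasi-likelihood F test, TMM, filterByExpr, 6 residual degrees of freedom) over 17079 genes. Calls were made at an adjusted p under 0.05 (Benjamini-Hochberg). SE is the fold change over the square root of F, and 95% intervals use the residual degrees of freedom. The step was tested on simulated counts. Total counts were 33666251 to 89553766.

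Of 93 list entries 91 were found by symbol or synonym. Named genes are the members, the targeted genes, neighbours, up to 4 genes per list with the smallest adjusted p or a role in the pathway, untested enzymes chosen after their counts were seen, and the 5 most and least correlated genes (log2 CPM, prior count 2, mean of at least 1). The members and lists were chosen with earlier results of these data known. Alternatives were other scalings and filters, DESeq2 1.42.0, limma-voom (limma 3.58.1), fits of 6 libraries, leaving out libraries, a covariate of Pth, Gcm2 and Casr, and removal of each library's GC trend (natural spline, 5 degrees of freedom; 97.4% of tested genes had a GC value). Some genes of the lists are not reported here.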

Additional observations from a re-analysis of the deposited data

How the results depend on the processing

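In Smarcb1-labelled against wild-type thyroid, Srd5a1 kept its direction and its call in all 20 alternatives, from -2.90 to -2.62 with adjusted p of at most 0.00884 (edgeR, DESeq2 or limma-voom). In Arid2-labelled against wild-type thyroid it stayed positive and uncalled in all 20 (0.42 to 0.77, adjusted p 0.181 to 0.543). All these fits hold libraries in which Srd5a1 was picked, so their p-values are not independent of the choice. Srd5a3 stayed negative and uncalled against wild type in all 20 of each comparison, from -0.21 to -0.13 for Smarcb1-labelled and -0.16 to -0.08 for Arid2-labelled thyroid. In Smarcb1-labelled against Arid2-labelled thyroid, Srd5a1 ranged from -3.56 to -3.25, and Srd5a3, at -0.05, was -0.02 with upper-quartile scaling, -0.07 with no filter, -0.01 with the parathyroid covariate and 0.01 with the GC trend removed. Srd5a2 was too low for a fold in any setting reported.

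The number of called pathway genes moved more. In Smarcb1-labelled against wild-type thyroid it was 7, and 3 with library totals, 3 with no filter, 2 in the fit of 6 libraries, 2 with the parathyroid covariate, 11 without the 2 thymus-marked libraries and 2 to 9 without any 1 library. In Smarcb1-labelled against Arid2-labelled thyroid it was 14, and 9 with no filter, 6 in the fit of 6 libraries, 1 with the parathyroid covariate, 4 with the GC trend removed and 1 to 19 without any 1 library. In Arid2-labelled against wild-type thyroid it was 0, and 2 by DESeq2. Over all genes, the calls in these 3 comparisons numbered 1349, 2779 and 95, and ranged from 344 to 2538, 395 to 4411 and 5 to 167 without any 1 library and from 200 to 2768, 149 to 4337 and 56 to 882 in the other alternatives. The cause was not tested. No paired analysis was possible because the labels give no pairing of libraries across groups, and equal replicate numbers do not mark pairs. Depth limits what can be said of Srd5a2, whose reads did not exceed 3 in any library.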
